A study of Mus musculus with 12 samples.

Results

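The 7 genes described here encode subunits of the GABA-A receptor: Gabra2, Gabra3, Gabra4 and Gabra5 (alpha class), Gabrb1 and Gabrb2 (beta class) and Gabrg3 (gamma class). They were taken by name from a list of receptor subunits, with no measured value in the rule, and make up 7 of the 22667 genes in the tables. All 7 were found, and all 7 passed the filter on low counts. GABA-A receptors are pentameric chloride channels opened by gamma-aminobutyric acid, and most are built from alpha, beta and gamma subunits. The alpha subunit shapes the affinity for GABA, the response to benzodiazepines and the place of the receptor at or away from synapses. In the embryonic forebrain, before most inhibitory synapses have formed, GABA can depolarise immature neurons, and the subunit mix of the receptors changes between late gestation and adulthood.

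The study sequenced messenger RNA of the cortex and the hippocampus of E18.5 mouse embryos, to ask what loss of Srrm4 (also called nSR100), a splicing regulator of neurons, does to the transcriptome. Control embryos are given as wild type. Knockout (KO) embryos carry an Srrm4 allele from which exons 7 and 8 were removed, made by crossing a floxed line on a C57Bl/6N background to mice with Cre recombinase driven by the CMV promoter, which acts broadly and is not restricted to neurons. Tissue and genotype give 4 groups of 2 libraries each.

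Total counts per library ran from 58210499 to 140052443, and the smallest count of any of the 7 genes in any library was 659. Levels are in RPKM, read counts scaled by gene length and library total. For Srrm4 itself the cortex controls had 25.22 and 24.22 RPKM and the cortex KO libraries 8.12 and 6.97. The hippocampus controls had 26.03 and 27.86 RPKM and the hippocampus KO libraries 5.68 and 6.16, so Srrm4 fell in both tissues (log2 fold change -1.71, SE 0.10, adjusted p = 0.000877 in cortex, and -2.22, SE 0.10, adjusted p = 0.000254 in hippocampus, edgeR). The tissue labels were checked against markers: Prox1, of dentate granule cells, lay at 25.72 to 34.29 RPKM in hippocampus and at 3.52 to 4.81 in cortex, and Tbr1, of projection neurons, at 70.32 to 71.94 in cortex and at 30.45 to 32.28 in hippocampus. Hippocampus KO replicate 1 had 4.40% mitochondrial counts against 3.14% to 3.44% in the other 7, and the members' values without it are given beside the KO results.

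The promoter sequences of 3 members are shown because these genes differed most between the tissues, 1 upward in hippocampus and 2 downward. RefSeq promoter entries (build GRCm38.p6) were matched for 7 of 7 members. Each sequence is the 250 bases before an annotated start, read 5′ to 3′ on the strand of the gene, and capitals mark CG dinucleotides. Gabra2 comes from chr5:71095850-71096099 (minus strand), Gabra3 from chrX:72656920-72657169 (minus strand) and Gabrb2 from chr11:42420190-42420439 (plus strand, its first listed start).
Gabra2: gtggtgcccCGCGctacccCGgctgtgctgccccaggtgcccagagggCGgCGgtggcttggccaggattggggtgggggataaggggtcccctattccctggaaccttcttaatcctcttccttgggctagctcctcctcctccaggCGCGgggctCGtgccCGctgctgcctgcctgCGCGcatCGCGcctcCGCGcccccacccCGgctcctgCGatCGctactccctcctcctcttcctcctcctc
Gabra3: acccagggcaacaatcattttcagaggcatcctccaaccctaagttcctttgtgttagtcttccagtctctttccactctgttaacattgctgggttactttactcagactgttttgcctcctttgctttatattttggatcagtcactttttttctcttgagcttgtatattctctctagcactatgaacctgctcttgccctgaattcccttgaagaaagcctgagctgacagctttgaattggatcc
Gabrb2: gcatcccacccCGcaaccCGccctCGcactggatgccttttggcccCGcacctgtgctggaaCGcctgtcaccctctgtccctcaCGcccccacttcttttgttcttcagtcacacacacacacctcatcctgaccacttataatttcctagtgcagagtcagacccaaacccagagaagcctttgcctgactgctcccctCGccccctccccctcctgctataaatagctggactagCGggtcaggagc
The Gabra2 sequence has 70.0% G and C and 18 CG dinucleotides, a number that 21.7% of 32851 RefSeq promoters of the same length reach. The Gabra3 sequence has 42.4% G and C and no CG, as do 7.87% of these promoters. The Gabrb2 sequence shown has 58.8% G and C and 8 CG, against a median of 52.4% and 6 over all promoters. Searched on both strands, the E-box CANNTG occurred 1 time in Gabra2, 1 time in Gabrb2 and not in Gabra3, and 66.2% of all promoters hold it. The letters CTTTGA, a core of TCF/LEF sites, also searched on both strands, occurred 1 time in the Gabra3 sequence shown and in neither of the other sequences shown, and 13.8% of all promoters hold them. RefSeq lists further starts. The sequence before the second start of Gabra3 overlaps the one shown and holds the same CTTTGA match, with no CG and 39.2% G and C. The second start of Gabrb2 has 54.0% G and C and 1 match to CTTTGA, and start 3 has 36.8% G and C and none. These matches describe the letters only.

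In control embryos, the subunits split by tissue. Gabra2, Gabra4 and Gabrb1 rose in hippocampus against cortex, and Gabra3, Gabrb2 and Gabrg3 fell. Gabra5 was higher in hippocampus without passing the test. Thus 6 of 7 passed, 3 in each direction, beside 33.9% of 16111 genes tested (19% higher and 14.9% lower in hippocampus). In these bulk samples, fewer cells of a type and less RNA per cell cannot be told apart.

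Gabra2 encodes the alpha subunit found at many forebrain synapses, including those on the axon initial segment of pyramidal neurons. The cortex controls had 32.95 and 28.59 RPKM, the cortex KO libraries 27.57 and 22.85, the hippocampus controls 76.19 and 69.47, and the hippocampus KO libraries 60.65 and 59.17. All 4 hippocampus libraries stood above all 4 cortex libraries, and in each tissue both KO libraries stood below both controls. The hippocampus level was 2.25-fold the cortex level in controls (log2 1.17, SE 0.12, adjusted p = 0.000237, edgeR) and 2.20-fold in KO (log2 1.14, SE 0.12, adjusted p = 0.000246). Gabra2 was the most abundant of the 7 in hippocampus, and in cortex control its libraries lay on both sides of those of Gabra5.

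Gabra3, on the X chromosome, encodes an alpha subunit that is abundant in the cortex before and around birth and is known to decline afterwards. Its level was 24.51 and 22.62 RPKM in the cortex controls, 23.18 and 20.49 in their KO counterparts, 9.43 and 9.09 in the hippocampus controls, and 8.69 and 6.99 in the KO hippocampus. The lowest cortex library was above the highest hippocampus library. The log2 difference of hippocampus against cortex was -1.42 in controls (SE 0.12, adjusted p = 8.04e-05, edgeR) and -1.58 in KO (SE 0.12, adjusted p = 4.24e-05), where hippocampus held 0.374 and 0.333 of the cortex level. The drop was the largest in size among the 7 genes in both genotypes.

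Gabra4 encodes an alpha subunit of receptors outside the synapse, which pairs with the delta subunit in adult dentate gyrus and thalamus. Among controls it lay at 5.36 and 5.10 RPKM in cortex and at 10.38 and 10.53 in hippocampus, and among KO libraries at 5.23 and 5.57 in cortex and at 9.93 and 10.48 in hippocampus. The tissues were well apart and the genotypes overlapped in both. Hippocampus was 1.90-fold cortex in controls (log2 0.92, SE 0.08, adjusted p = 8.25e-05, edgeR) and 1.76-fold in KO (log2 0.81, SE 0.08, adjusted p = 0.000138). Gabrd, the gene of the delta subunit, went the other way (log2 -1.01, SE 0.18, adjusted p = 0.00341 in controls), at 0.85 and 0.99 RPKM in hippocampus control and 1.65 and 1.86 in cortex control.

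Gabra5 encodes the alpha subunit of extrasynaptic receptors that carry tonic inhibition in adult hippocampal pyramidal neurons. Controls held 31.24 and 31.50 RPKM in cortex and 44.45 and 40.22 in hippocampus, whereas KO libraries held 27.76 and 29.58 in cortex and 30.03 and 38.64 in hippocampus. The tissues did not overlap within a genotype, but hippocampus KO replicate 1 lay below both cortex controls. In controls the log2 difference was 0.36 (95% interval 0.08 to 0.64, adjusted p = 0.0541, edgeR), just short of the threshold of 0.05, and adjusted p ran from 0.0113 to 0.260 over the alternative settings. In KO it was 0.15 (95% interval -0.13 to 0.44, adjusted p = 0.358). Without hippocampus KO replicate 1 the KO difference was 0.33 and passed (adjusted p = 0.0372), and without replicate 2 it was -0.05 (adjusted p = 0.702).

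Gabrb1 encodes a beta subunit, the class that forms the GABA-binding sites together with alpha. Cortex libraries had 6.92 and 5.45 RPKM (control) and 6.27 and 4.78 (KO), and hippocampus libraries 11.42 and 9.13 (control) and 11.88 and 8.58 (KO). Every hippocampus library was above every cortex library, and replicate 1 was above replicate 2 in each group. The log2 difference was 0.66 in controls (SE 0.22, adjusted p = 0.0467, edgeR) and 0.78 in KO (SE 0.22, adjusted p = 0.0220). The call in controls sat at the threshold: it was lost when either cortex control was left out (adjusted p = 0.0581 for replicate 1 and 0.232 for replicate 2) and without hippocampus control replicate 1 (0.233), while the log2 difference stayed between 0.46 and 0.87. The call in KO was lost without cortex KO replicate 2 (adjusted p = 0.102) or hippocampus KO replicate 1 (0.150).

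Gabrb2 encodes a beta subunit that is abundant in the receptors of the adult brain. Its cortex values were 25.74 and 20.81 RPKM (control) and 26.54 and 21.04 (KO), and its hippocampus values 10.54 and 9.01 (control) and 11.72 and 8.04 (KO). All cortex libraries were above all hippocampus libraries, with the genotypes interleaved. The log2 difference was -1.32 in controls (SE 0.21, adjusted p = 0.00158, edgeR) and -1.38 in KO (SE 0.21, adjusted p = 0.00123).

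Gabrg3 encodes a gamma subunit, the class needed for benzodiazepine binding and for clustering at synapses. It was the lowest of the 7 in every group, at 2.35 and 2.05 RPKM (control) and 2.39 and 1.90 (KO) in cortex, against 1.37 and 1.30 (control) and 1.32 and 1.17 (KO) in hippocampus. Cortex and hippocampus did not overlap. The log2 difference was -0.79 in controls (SE 0.14, adjusted p = 0.00357, edgeR) and -0.90 in KO (SE 0.15, adjusted p = 0.00186).

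**Figure D1:**
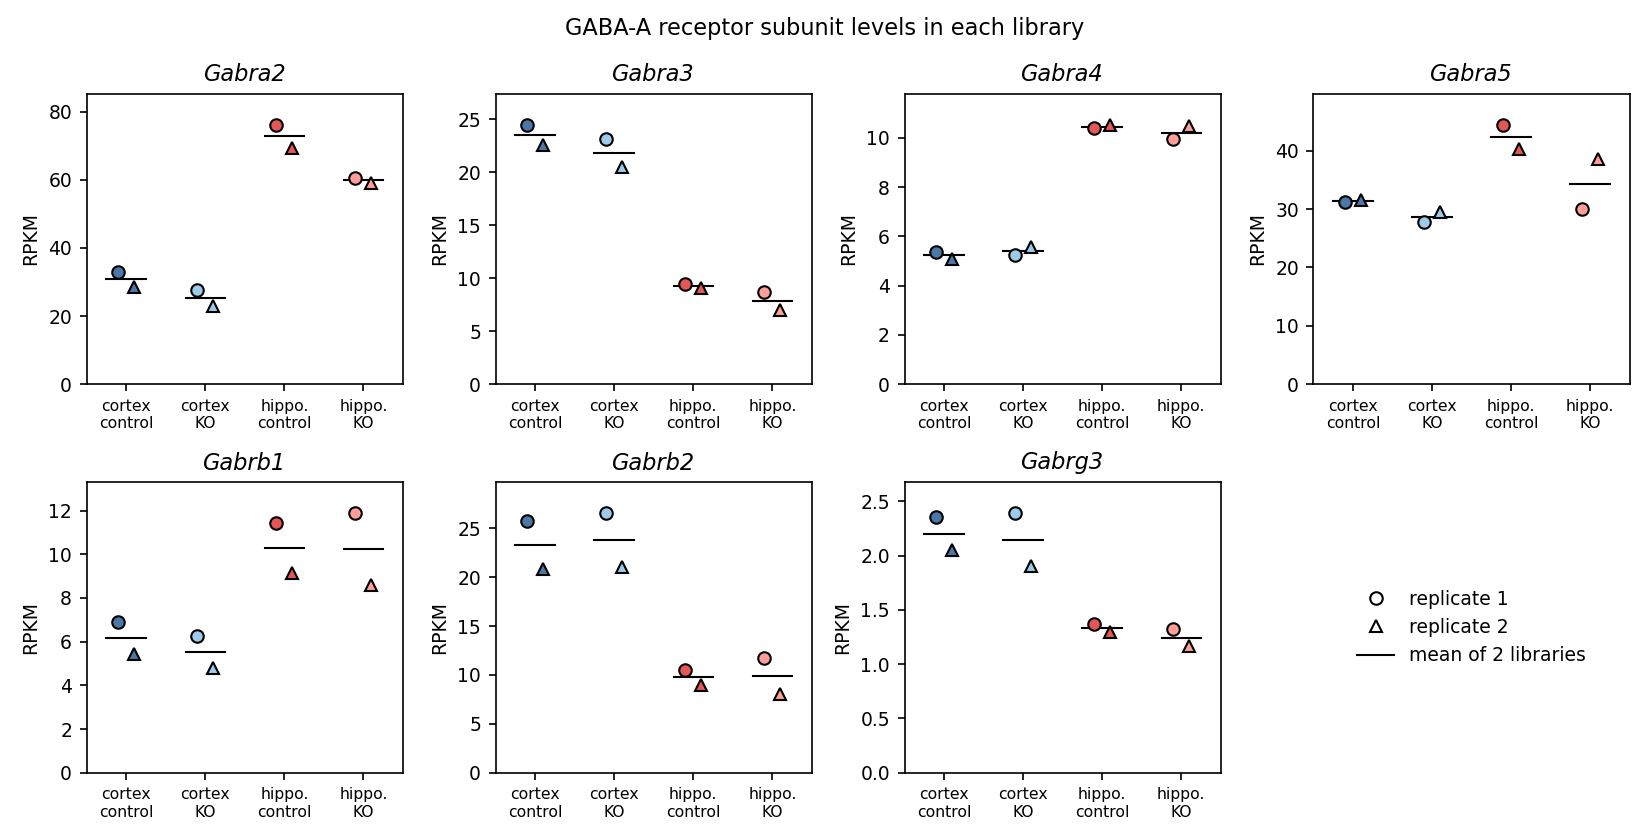
RPKM of the 7 subunit genes in each library, 1 panel a gene, with points for the 2 libraries of a group and a bar at their mean; each vertical axis starts at 0. Gabra2 reaches 76.19 RPKM in hippocampus control, and Gabra3 and Gabrb2 are the genes with cortex above 20 and hippocampus below 12 RPKM.

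In KO embryos 6 of 7 members also passed between the tissues, the same 6 in the same directions (40% of all genes passed, 21.2% higher and 18.8% lower). Without hippocampus KO replicate 1, Gabra5 passed in place of Gabrb1, and the log2 difference was -1.74 for Gabra3, -1.67 for Gabrb2, -0.98 for Gabrg3, 1.13 for Gabra2 and 0.86 for Gabra4. With both genotypes in an additive model, 7 of 7 passed, 4 higher and 3 lower, beside 54.1% of all genes (29% higher and 25% lower). Gabra5 entered there with a log2 difference of 0.26 (SE 0.09, adjusted p = 0.0330, edgeR), and it was lost in 6 of the 8 fits that left out 1 library each (adjusted p up to 0.105). Groups without overlap were 7 of 7 between control tissues, 4 higher in hippocampus and 3 lower, where 43.1% and 25.1% of all genes had such groups. The median log2 difference of the 7 was 0.36 in controls and 0.15 in KO, both being the value of Gabra5, against medians of 0.01 and 0.03 over all genes. The genotype by tissue interaction of each member lay between -0.21 (Gabra5) and 0.12 (Gabrb1) on the log2 scale, and none passed (adjusted p = 1.00, edgeR).

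**Figure D2:**
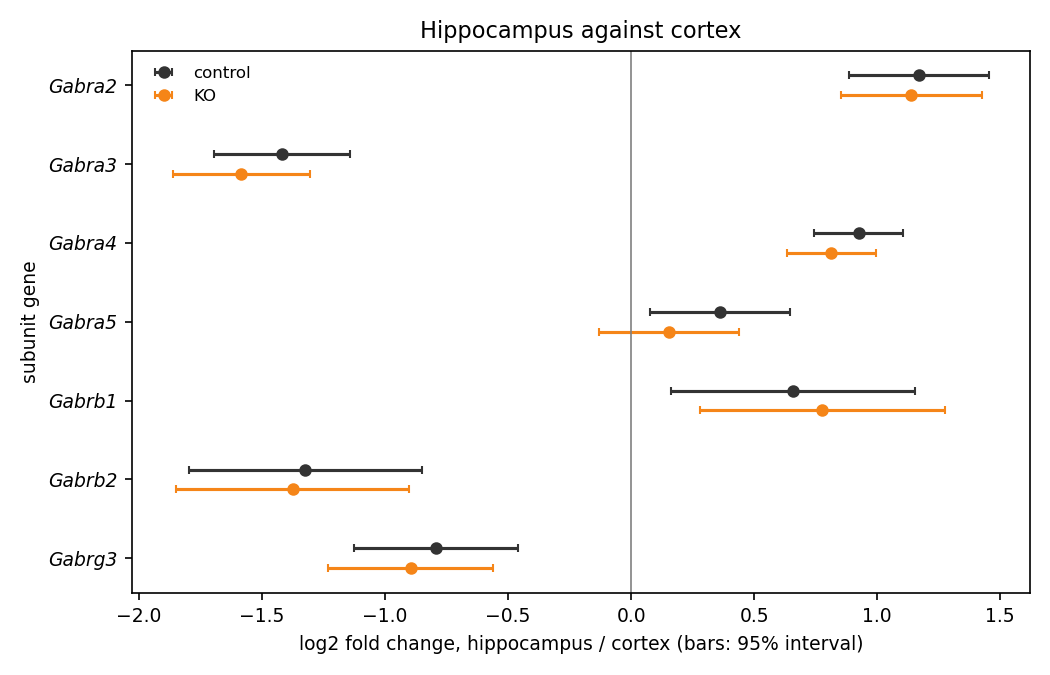
Log2 fold change of hippocampus over cortex (horizontal axis) for each subunit gene in controls and in KO, from edgeR, with 95% intervals as bars. Gabra2, Gabra4 and Gabrb1 lie right of 0 and Gabra3, Gabrb2 and Gabrg3 left of 0 in both genotypes, while the KO interval of Gabra5 crosses 0.

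The abundance order changed with the tissue. In cortex control the means ran from Gabra5 (31.4 ± 0.18 RPKM, SD, n = 2) and Gabra2 (30.8 ± 3.08) through Gabra3 (23.6 ± 1.34) and Gabrb2 (23.3 ± 3.49) to Gabrb1 (6.185 ± 1.04), Gabra4 (5.23 ± 0.18) and Gabrg3 (2.20 ± 0.21). In that order Gabra5 overlapped with Gabra2, and Gabra3 with Gabrb2, while the other neighbours did not overlap. In hippocampus control Gabra2 led (72.8 ± 4.75), followed by Gabra5 (42.3 ± 2.99), and then Gabra4 (10.5 ± 0.11), Gabrb1 (10.3 ± 1.62), Gabrb2 (9.775 ± 1.08) and Gabra3 (9.26 ± 0.24), where each of these 4 overlapped with its neighbour among them. Gabrg3 was last (1.335 ± 0.05). In cortex KO, Gabra5 (28.7 ± 1.29) did not overlap with Gabra2 (25.2 ± 3.34), with 27.76 RPKM in its lower library against 27.57 in the higher library of Gabra2, and Gabra2, Gabrb2 and Gabra3 overlapped in turn. In hippocampus KO, Gabra2 (59.9 ± 1.05) and Gabra5 (34.3 ± 6.09) again led, and the next 4 genes overlapped in turn.

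The share of each gene in the summed RPKM of the 4 alpha genes described here shows the change of mix. Gabra2 made up 33.8% of this sum in cortex control (SD 1.75, n = 2) and 54.0% in hippocampus control (SD 0.37). Gabra3 made up 25.9% (SD 0.21) and 6.87% (SD 0.22), and Gabra5 34.5% (SD 1.88) and 31.4% (SD 0.39). Gabra4 was a minor part in both tissues (5.75% and 7.77%). The sum itself was 90.9 RPKM in cortex control and 135 RPKM in hippocampus control. These shares are descriptions of level, with no test.

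Between the 2 beta genes the balance also differed by tissue. Gabrb2 held 79.0% of their summed RPKM in cortex control and 48.8% in hippocampus control, with Gabrb1 holding the rest (21.0% and 51.2%). In KO libraries Gabrb2 held 81.2% in cortex and 49.02% in hippocampus. The sum was 29.5 RPKM in cortex control and 20.05 RPKM in hippocampus control.

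**Figure D3:**
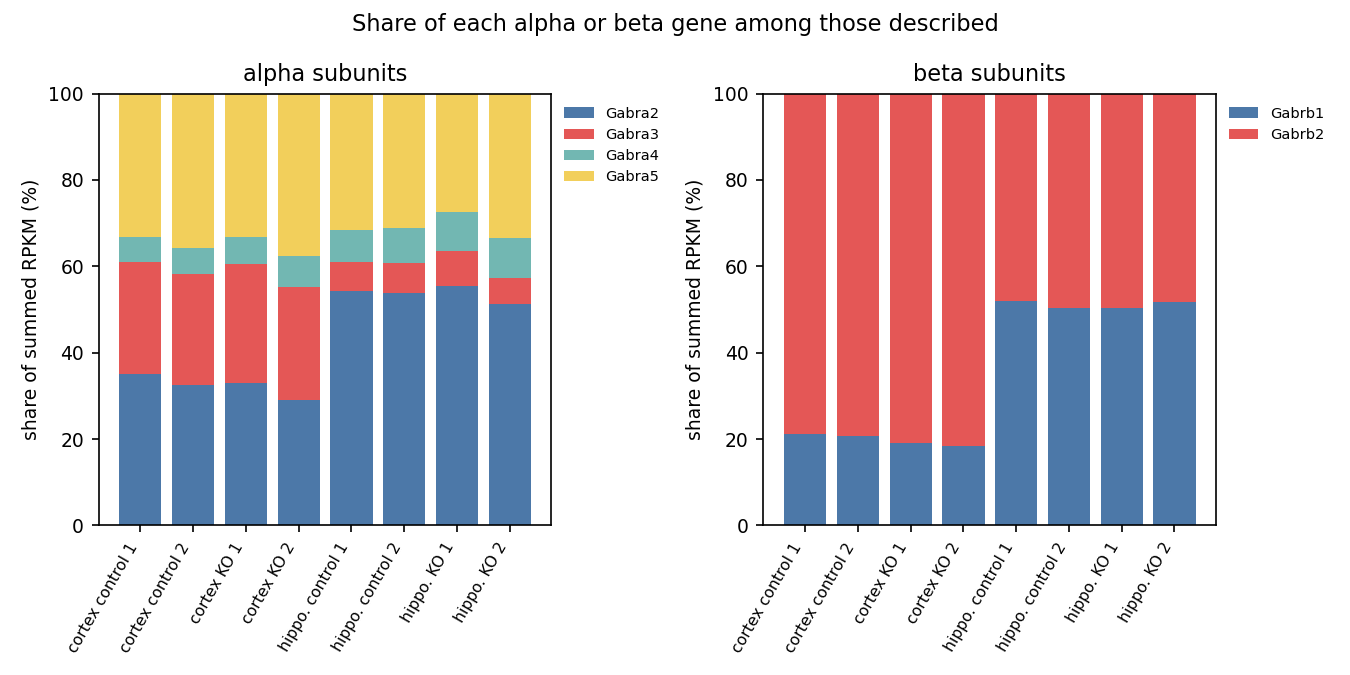
Share of each gene in the summed RPKM of the 4 alpha genes or the 2 beta genes described here (vertical axis, percent), stacked for each of the 8 libraries. The Gabra2 share is 29.1% to 35.0% in cortex libraries and 51.3% to 55.5% in hippocampus libraries, and the Gabra3 share is 6.06% to 7.95% in hippocampus.

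Many GABA-A genes lie in clusters, and neighbours in a cluster differed between the tissues in unlike ways. On chromosome 5 the order is Gabrg1, Gabra2, Gabra4 and Gabrb1 (GENCODE M21), where Gabrg1, a gamma subunit, fell (log2 -1.16, SE 0.14, adjusted p = 0.000445, edgeR, controls) and the 3 members beside it rose. On chromosome 7 Gabrg3 lies next to Gabra5, and Gabrg3 fell in controls while Gabra5 (0.36) did not pass. On the X chromosome Gabra3 fell beside Gabrq, the theta subunit gene (log2 -0.98, SE 0.18, adjusted p = 0.00372), and Gabre, the epsilon subunit gene, did not pass (-0.28, adjusted p = 0.451).

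**Figure D4:**
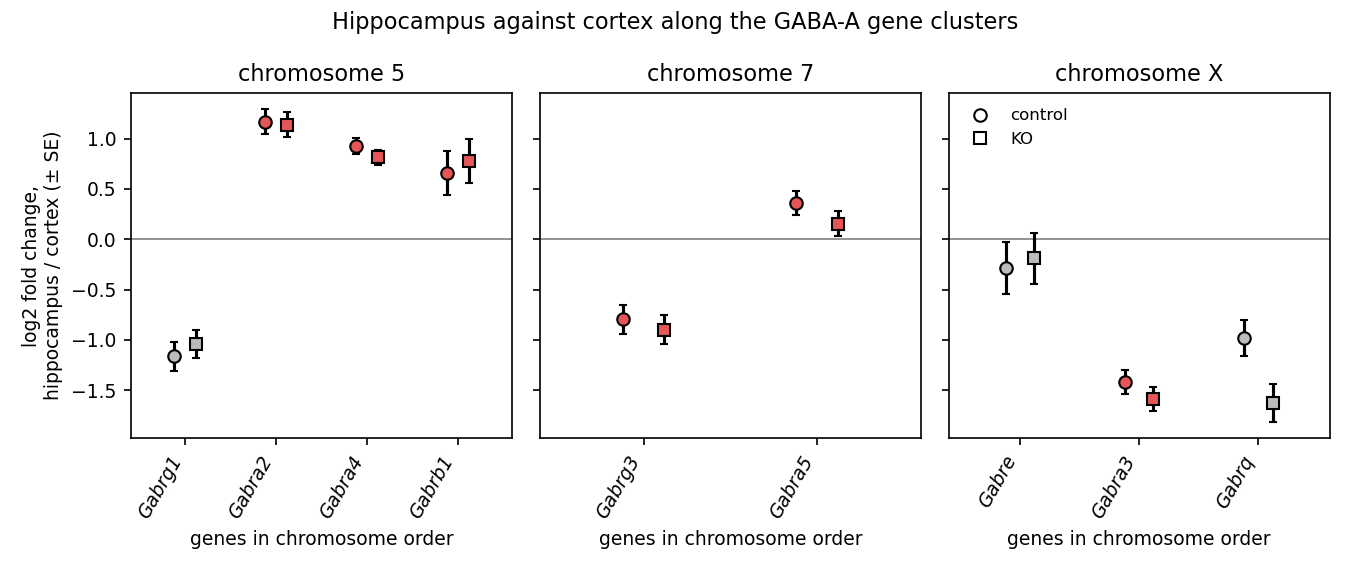
Log2 fold change of hippocampus over cortex (vertical axis, with SE bars; circles for controls, squares for KO) for GABA-A genes on chromosomes 5, 7 and X, placed in chromosome order (no distances shown), with the 7 subunits described here in red and other subunits in grey. In controls, chromosome 5 holds Gabrg1 at -1.16 beside Gabra2 at 1.17, and the 3 genes on the X chromosome are below 0.

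Some exons overlap across strands. Gabra4 and Gabrb1 start 387 bases apart, head to head, and share 46 exonic bases (0.756% of the exonic bases of Gabra4 and 0.332% of those of Gabrb1). Gabra5 shares 148 bases (4.98%) with the antisense gene Gm9962. No source used here gives the strand setting of the counting, so reads from these stretches cannot be assigned to either partner.

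Loss of Srrm4 moved none of the 7 genes past the threshold. In cortex 0 of 7 passed, beside 0.0186% of all genes (3 genes), in hippocampus 0 of 7 beside 0.0248% (4 genes), and over both tissues 0 of 7 beside 0.0621% (10 genes), all by edgeR. DESeq2 also called 0 of 7 in each. At an unadjusted p under 0.05, members counted 0 in cortex, 2 in hippocampus and 2 over both tissues, where 183, 614 and 713 genes of all tested did so. The median log2 difference of the 7 was -0.10 in cortex, -0.13 in hippocampus and -0.10 over both, with 2, 0 and 1 of 7 above 0, while the medians over all genes were -0.001, -0.004 and -0.004.

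Gabra2 had the lowest p of the 7 over both tissues. Its level in KO was 0.822 of control in cortex (log2 -0.28, 95% interval -0.56 to 0.00, adjusted p = 1.00, edgeR) and 0.805 in hippocampus (log2 -0.31, 95% interval -0.59 to -0.03, adjusted p = 0.992). Over both tissues the log2 difference was -0.30 (95% interval -0.48 to -0.12, unadjusted p = 0.00489, adjusted p = 0.937), and adjusted p ran from 0.115 to 1.00 over the alternatives. Both KO libraries lay below both controls in each tissue for Gabra2 and Gabra5, and in hippocampus also for Gabra3. Groups without overlap and lower in KO were seen for 11% of all genes in cortex and 11.8% in hippocampus. Leaving out hippocampus KO replicate 1 gave -0.30 for Gabra2 over both tissues.

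For Gabra5 the log2 difference was -0.13 in cortex (95% interval -0.41 to 0.16) and -0.33 in hippocampus (-0.62 to -0.05, unadjusted p = 0.0266, adjusted p = 0.992, edgeR). The hippocampus value was -0.15 without KO replicate 1 and -0.54 without KO replicate 2 (adjusted p = 0.957 and 0.154). For Gabra3 it was -0.10 in cortex (-0.38 to 0.17) and -0.27 in hippocampus (-0.54 to 0.01, adjusted p = 0.992), and -0.43 and -0.13 there without KO replicates 1 and 2. KO replicate 2 held the lowest value of this X-linked gene in each tissue. The summed RPKM of the Y-linked genes in cortex and hippocampus was 0.11 and 0.14 in KO replicate 2, and 7.34 and 14.9 in KO replicate 1. In controls it was 10.3 and 11.44 in replicate 1, and 45.53 and 47.02 in replicate 2. The median KO effect of these genes was -2.57 in cortex and -1.83 in hippocampus, with 0 of 4 above 0 and 0 passing. Sex and genotype thus cannot be told apart in the KO comparisons of any of the 7 genes, and the part of sex was not tested.

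None of the other 4 genes had an unadjusted p under 0.05. Gabra4 had 0.05 in cortex (95% interval -0.13 to 0.23) and -0.06 in hippocampus (-0.24 to 0.11), the narrowest intervals of the 7. Gabrb1 had -0.16 (-0.66 to 0.34) and -0.04 (-0.53 to 0.45), and Gabrb2 0.04 (-0.43 to 0.50) and -0.01 (-0.48 to 0.45). Gabrg3 had -0.03 (-0.36 to 0.30) and -0.13 (-0.47 to 0.20). Without hippocampus KO replicate 1 the hippocampus differences were -0.02 for Gabra4, -0.29 for Gabrb1, -0.31 for Gabrb2 and -0.22 for Gabrg3 (adjusted p = 0.985 for Gabra4 and 0.957 for each of the other 3, edgeR), and the median of the 7 was -0.29. The 95% intervals of these 4 genes reach to both sides of 0, so with 2 libraries a group the values do not show equal levels. These intervals are not limits of detection, which also depend on the adjustment over all genes tested.

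**Figure D5:**
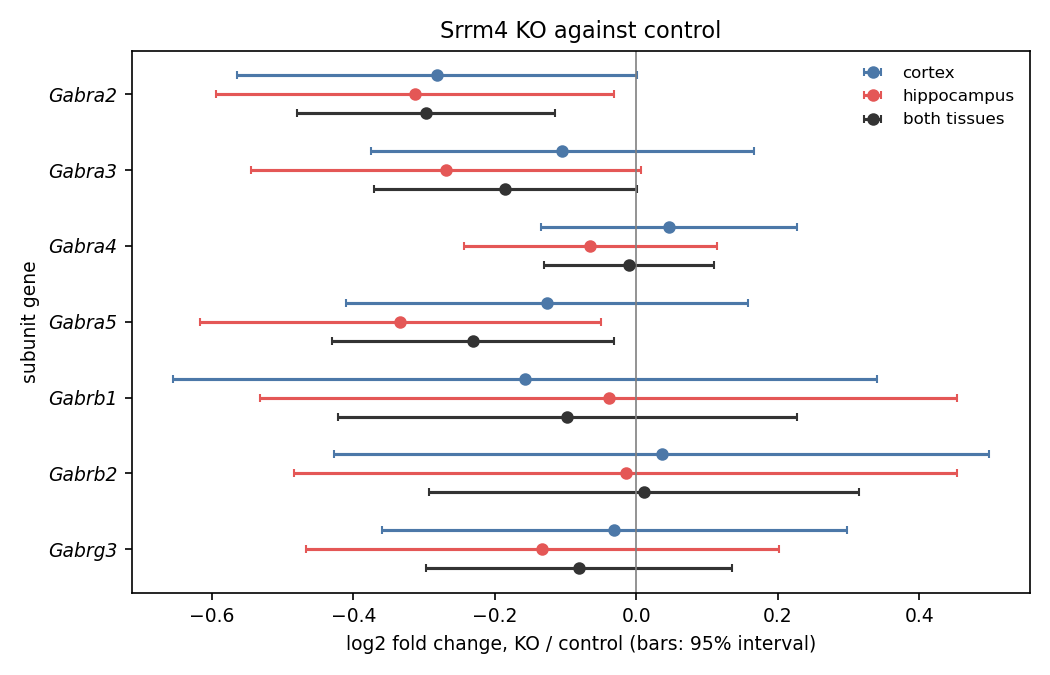
Log2 fold change of KO over control (horizontal axis) for each subunit gene in cortex, in hippocampus and over both tissues, from edgeR, with 95% intervals as bars. Gabra2 is below 0 in all 3 comparisons (-0.28, -0.31 and -0.30), and the intervals of Gabra4, Gabrb1, Gabrb2 and Gabrg3 cross 0 throughout.

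Of 12 listed GABA-A genes outside the 7, 10 were tested between the tissues. In controls 1 passed as higher and 5 as lower, beside 19% and 14.9% of all genes, and the median log2 difference was -0.73. The 1 passing as higher was Gabra6, at only 0.02 and 0.05 RPKM in cortex control and 0.18 and 0.1 in hippocampus control. In KO 1 passed as higher and 6 as lower, beside 21.2% and 18.8% of all genes. For the KO effect 0 of 10 passed in cortex, in hippocampus or over both tissues.

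Genes of GABA synthesis, the inhibitory postsynapse and receptor trafficking (32 listed and tested) passed as higher in hippocampus in 3 cases and as lower in 12 in controls, with a median log2 difference of -0.19. By smallest p these were Gad2 and Gad1, the GABA-synthesising enzymes, and Hap1, which takes part in receptor recycling (log2 -1.18, -0.87 and -0.99). The KO effect passed for 0 of 32 in either tissue, with 17 of 32 above 0 in cortex and 8 of 32 in hippocampus. Without hippocampus control replicate 2, whose choroid plexus markers stood apart (158.82 summed RPKM against 15.61 in replicate 1), 2 passed as higher and 6 as lower between the control tissues.

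Cell type markers differed between the tissues beside the subunits, and their part in the subunit values was not tested. Interneuron markers passed as lower in hippocampus in 10 of 10 cases in controls, and their summed RPKM was 521 to 560 in cortex libraries, 185 and 207 in the hippocampus controls and 149 and 166 in their KO counterparts. Their median KO effect was -0.43 in hippocampus, with 0 of 10 passing and 10 of 10 below 0, and -0.27 without KO replicate 1. Pan-neuronal genes passed as lower in hippocampus in 5 of 8 cases in controls, with sums of 3494 to 3771 RPKM in cortex and 2718 to 3051 in hippocampus, and had a median KO effect of -0.14 in hippocampus (-0.08 without KO replicate 1). Without hippocampus control replicate 2, 1 of the 8 passed. Radial glia genes passed as higher in hippocampus in 6 of 8 cases, intermediate progenitor genes in 5 of 5 and Cajal-Retzius genes in 5 of 6 (the other passed as lower), with sums of 967 to 1066, 49.7 to 60.8 and 62.0 to 77.1 RPKM in cortex and 1403 to 1718, 174 to 220 and 197 to 240 RPKM in hippocampus. Of the other lists, markers of cortical projection neurons passed as lower in 8 of 10 cases and as higher in 1 in controls, hippocampus markers as higher in 8 of 10, striatum markers as lower in 8 of 8, thalamus markers as higher in 1 and lower in 3 of 6, and oligodendrocyte lineage markers as lower in 4 of 5. Microglia markers passed as higher in 7 of 8, endothelial markers in 3 of 5 and erythroid markers in 0 of 6. Choroid plexus markers passed as higher in 4 of 5 in controls, in 1 of 5 in controls without hippocampus control replicate 2, and in 1 of 5 in KO. Without that library, oligodendrocyte lineage markers passed as lower in 2 of 5 and endothelial markers as higher in 1 of 5. For the KO effect 0 markers passed in any of these lists, while 8 of 8 microglia and 6 of 6 erythroid markers were above 0 in both tissues (6 of 8 and 6 of 6 in hippocampus without KO replicate 1). No listed marker was at 0 in any library.

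Replicate 1 was above replicate 2 in all 4 groups for 5 of the 7 genes (Gabra2, Gabra3, Gabrb1, Gabrb2 and Gabrg3), and for 13.4% of 11969 genes with at least 1 RPKM in every library. The ratio of replicate 1 to replicate 2 reached 1.46 for Gabrb2 (from 1.17) and 1.38 for Gabrb1 (from 1.25), the highest single values of the 7, and ran from 0.777 to 1.11 for Gabra5. In every group, replicate 1 joins 2 sequencing runs and is the deeper library, so run number, depth and embryo cannot be told apart.

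The genes with profiles most like those of the members were sought among 12656 genes, by the root mean square difference of log2 levels centred on each gene's mean over the 8 libraries. For Gabra2 they were Gdf10 (0.11) and the unnamed gene ENSMUSG00000019769 (0.12), for Gabra3 Prkcq (0.07) and Zfp941 (0.08), and for Gabra4 Ttyh2 and St3gal5 (0.03 each). For Gabra5 they were Sema4f and Arf6 (0.07 each), and for Gabrb1 AW011738 (0.06) and Itgav (0.08). For Gabrb2 they were Pde4d (0.08) and Pcdh7 (0.10), and for Gabrg3 Adgrl3 (0.04). The closest pair among the 7 was Gabra3 and Gabrb2 (0.16). By likeness to Gabra3, Gabrb2 ranked 57 among all genes compared.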

How the data were processed

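Each deposited table holds an RPKM value and a read count per Ensembl gene ID, both made by the authors; per the submitters' processing notes, Bowtie and the mouse build mm9 were used, with the counting rule and strand setting not given in sources used here. The gene length implied by RPKM, count and total was compared with that in cortex control replicate 1 for 6225 genes. The ratios ran from 0.999 to 1.00, with the outermost values at either end left out. No known gene length was used. RPKM serves for levels and counts for tests. Per library, 1114 RPKM cells, none of a member, hold the text "ne" and were read as missing. Per the labels' protocols, Tri Reagent served for RNA and a TruSeq kit for the libraries. The 12 labelled samples reach 8 tables, since runs 1 and 2 of replicate 1 share a table, and each table was used as 1 library. Within groups, replicates were further apart than counting error allows (chi-square over its degrees of freedom 30.6 to 61.9), so none was merged. Whether libraries stem from separate embryos is not stated in the labels, and p-values thus reflect only the spread among the libraries, which may be partly technical. Of 22667 IDs, 20759 matched a symbol.

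The main test was edgeR 4.0.16 (quasi-likelihood, TMM, R 4.3.3), two-sided, on 16111 genes that passed filterByExpr (minimum count 10, minimum total count 15), with Benjamini-Hochberg adjustment over all of them and a threshold of 0.05. Comparisons within a tissue or genotype came from a fit of 4 group means, those over both from additive terms for tissue and genotype. Intervals are 95% from the t distribution; for folds and levels they cover the spread between libraries. The scripts were tested on simulated data. Alternatives were RLE scaling, DESeq2 1.42.0, other filters, limma 3.58.1 on log2(RPKM + 1) and log2(RPKM + 0.1), a replicate block, and leaving out each library; the gene lists without hippocampus KO replicate 1 or hippocampus control replicate 2 were added after seeing the data. The 7 members and the gene lists were chosen with earlier results of these data known. Named genes are the 7, Srrm4, up to 3 passing genes of a list by smallest p, and the neighbours in the gene clusters. The 2 genes nearest to each member in profile are named too. Gabrd, Gabre, Gabra6, Prox1 and Tbr1 were chosen after their values were seen. Some genes that this rule names are not reported here. Promoter sequences are from RefSeq (GRCm38.p6); since the files use mm9, no other coordinates are given.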

Additional observations from a re-analysis of the deposited data

How the results depend on the processing

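The number of members called was 0 for every genotype comparison and the interaction under all alternatives run. It was 5 to 7 for hippocampus against cortex in controls, 5 to 6 in KO and 6 to 7 over both genotypes, and the genes that entered or left were Gabra5 and Gabrb1. With RLE scaling Gabrb1 in controls (adjusted p = 0.0572) and Gabra5 over both genotypes (0.0551) no longer passed; Gabra5 in controls passed with DESeq2 (0.0486), without a filter (0.0438), with limma at either pseudocount (0.0291 and 0.0263), with the replicate block (0.0388, where Gabrb1 had 0.000114) and with the 4 control libraries alone (0.0156). The labels do not say whether replicate numbers pair the libraries, and the main fits counted all libraries as independent. Correlations of replicate differences ran from 0.04 to 0.67, and 2 numbers are too few to settle whether libraries are paired. The correlations were 0.67 between the control tissues and 0.55 between the KO tissues, against 0.04 to 0.46 between genotypes. That is a hint of pairing from the data and not the design. With the replicate block, 4 genes passed for the KO effect in cortex, 6 in hippocampus and 22 over both tissues, and 7053 between control tissues, 8151 between KO tissues and 10007 over both genotypes. Over all alternatives these counts of genes ran from 2 to 11, 2 to 18, 3 to 37, 3231 to 7053, 4156 to 8151 and 7152 to 10007. Signs changed for several values that had not passed: the KO effect over both tissues was 0.0032 and 0.0050 for Gabra4 with limma (pseudocounts 1 and 0.1) and -0.00020 for Gabrb2 on the mean of both tissues, and the interaction of Gabra2 was 0.0039 and 0.0093 with limma. Leaving out 1 library at a time, the KO effect in cortex ran from -0.39 to 0.047 for Gabrb1, -0.23 to 0.14 for Gabrg3, -0.0091 to 0.10 for Gabra4 and -0.16 to 0.22 for Gabrb2. In hippocampus it ran from -0.29 to 0.16 for Gabrb1 and -0.31 to 0.22 for Gabrb2, and over both tissues from -0.041 to 0.021 for Gabra4 and -0.094 to 0.11 for Gabrb2. The interaction ran from -0.17 to 0.13 for Gabra2, -0.13 to 0.35 for Gabrb1, -0.34 to 0.18 for Gabrb2 and -0.27 to 0.092 for Gabrg3, and the tissue difference in KO from -0.051 to 0.33 for Gabra5. The cause of these changes was not tested. Each group has 2 libraries, which were further apart than counting error allows, and the part of read depth was not tested.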
